A study of Homo sapiens with 12 samples.

Results

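The loci of 6 genes known from leukaemia fusions, ETV6, RUNX1, ERG, ABL1, BCR and STIL, held 88 KDM2B peaks over 7 human leukaemia cell lines. They were taken as every peak that overlapped a fixed window of the human genome (build hg19) around each gene, and they make up 88 of the 79473 peaks of the 7 lists. Sites of KDM2B were mapped by ChIP-seq, the sequencing of DNA precipitated with an antibody to the protein, with 1 library and 1 peak list per line, so no line had a replicate. K562 came from the blast crisis of a chronic myeloid leukaemia, carries the BCR-ABL1 fusion and is known to hold extra copies of the fusion. SUP-B15 stems from acute lymphoblastic leukaemia of B-cell precursors (B-ALL) and also carries BCR-ABL1. REH is a B-ALL line with ETV6-RUNX1 that is known to have lost its other ETV6 allele. The remaining 4, JURKAT, DND41, SIL-ALL and HPB-ALL, derive from the T-cell form of the disease (T-ALL). All 7 were grown in IMDM with 10% FBS. Lineages and fusions are background knowledge and not labels, and each line stands for 1 patient's leukaemia. The lists hold peaks and no expression values, so the identity of the lines could not be checked against marker genes.

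KDM2B demethylates histone H3. Its CXXC domain recognises CpG free of methylation, mostly in CpG islands, where it brings in a variant Polycomb repressive complex. RUNX1 is the DNA-binding subunit of core binding factor and a master regulator of blood formation, while ETV6 is an ETS-family repressor needed for blood stem cells. In ETV6-RUNX1 the 5′ part of ETV6 is joined to nearly all of RUNX1. BCR-ABL1 joins the 5′ part of BCR, a protein with an oligomerization domain, to all but the first exon of the tyrosine kinase ABL1. ERG is an ETS factor of blood and endothelial cells that takes part in rarer leukaemia fusions. STIL is a centriole duplication gene whose 5′ part is joined to TAL1 by a deletion in some T-ALL.

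Because KDM2B reads CpG, the 250 bases before the start of transcription are shown for 4 of the 6 loci, with each CpG in capitals. RUNX1 and BCR were the loci with a peak in every list, ETV6 lacked peaks in K562 and REH, and ERG had few peaks. Of the loci not shown, ABL1 also lacked peaks in 2 lists, and STIL had fewer peaks than ERG. The sequences are RefSeq's of GRCh38.p14, all 6 genes matched the table, and no position was carried from one build to the other. Whether a peak covers one of these sequences was therefore not determined.
RUNX1, GRCh38.p14 chr21:34888700-34888949, strand -: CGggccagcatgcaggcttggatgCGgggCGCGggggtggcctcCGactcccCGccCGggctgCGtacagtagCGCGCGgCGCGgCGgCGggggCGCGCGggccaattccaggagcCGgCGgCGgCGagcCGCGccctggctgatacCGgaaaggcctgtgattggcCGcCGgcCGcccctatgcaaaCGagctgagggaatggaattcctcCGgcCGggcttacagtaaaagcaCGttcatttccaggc
BCR, GRCh38.p14 chr22:23180259-23180508, strand +: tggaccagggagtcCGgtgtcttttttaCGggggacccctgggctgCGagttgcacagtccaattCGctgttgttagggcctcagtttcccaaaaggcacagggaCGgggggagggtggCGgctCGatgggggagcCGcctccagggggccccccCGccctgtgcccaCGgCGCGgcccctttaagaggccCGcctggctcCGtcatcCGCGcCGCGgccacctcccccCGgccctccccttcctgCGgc
ETV6, GRCh38.p14 chr12:11649424-11649673, strand +: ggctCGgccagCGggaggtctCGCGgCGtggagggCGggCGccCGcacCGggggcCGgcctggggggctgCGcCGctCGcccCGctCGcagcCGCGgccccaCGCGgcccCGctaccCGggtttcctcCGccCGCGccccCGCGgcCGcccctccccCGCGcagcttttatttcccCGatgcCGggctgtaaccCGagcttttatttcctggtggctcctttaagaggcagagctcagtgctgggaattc
ERG, GRCh38.p14 chr21:38660668-38660917, strand -: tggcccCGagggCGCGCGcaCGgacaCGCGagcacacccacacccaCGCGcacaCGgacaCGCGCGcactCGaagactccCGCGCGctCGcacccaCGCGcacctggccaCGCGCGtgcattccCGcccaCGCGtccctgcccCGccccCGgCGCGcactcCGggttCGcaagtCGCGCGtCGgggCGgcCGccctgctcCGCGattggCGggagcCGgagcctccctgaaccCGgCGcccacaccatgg
The motif searched was CG, which reads the same on either strand. It occurred 32 times in the RUNX1, 20 times in the BCR and 32 times in the ETV6 stretch, against a median of 11 over 35116 promoter stretches of this length, of which 93.9% hold at least 1. ABL1 had 33 and STIL 26 in the same window. The ERG stretch shown had 44, more than 99.2% of all promoters. The table's other 3 ERG promoters had 2 or 3. ERG had 5 peaks in all lists and BCR 28, counted over the whole windows and not at these stretches. A link between CpG and peaks was not tested.

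Peaks were unequally spread over the loci. RUNX1 held 31 peaks in all lists together (11.4 per 100 kb of window), BCR 28 (18.9 per 100 kb), ETV6 15 (5.88), ABL1 7 (3.80), ERG 5 (1.64) and STIL 2 (2.70). RUNX1 and BCR had a peak in each of the 7 lists, ETV6 and ABL1 in 5, ERG in 3 and STIL in JURKAT alone. When the genome was divided into tiles as long as the window, and tiles without any peak were left out, 20.4% of tiles of the RUNX1 length and 13.7% of tiles of the BCR length held a peak of every list. For the lengths of ETV6, ERG, ABL1 and STIL, which had no peak in at least 1 list, these shares were 19.6%, 22%, 16.1% and 8.97%. A peak in 4 or more lists was found in 58.8% (ETV6), 59.4% (RUNX1), 60.5% (ERG), 54.2% (ABL1), 51.2% (BCR) and 43.6% (STIL) of tiles. ETV6 and ABL1 both had a peak in 5 lists, and the ABL1 peaks were the lower ranked: 3 lists kept one with equal lists of the 5942 top-scored peaks and 2 with peaks at or above their list's median score, against 5 and 4 at ETV6. As many peaks as at BCR, summed over the lists, were found in 6.54% of tiles of its length, and as many as at RUNX1 in 11.2%. For ERG and STIL, 66.8% and 76.0% of the tiles had as many peaks or more. The lists contributed 9 peaks from K562, 7 from REH, 8 from SUP-B15, 8 from DND41, 14 from HPB-ALL, 26 from JURKAT and 16 from SIL-ALL. The lists themselves ranged from 5942 peaks (K562) to 15304 (SIL-ALL), and their lowest scores from 50 to 80.0. The median peak width was 552 bp in the K562 list and 213 to 350 bp in the other lists. Widths and covered bases are therefore not on an equal footing between K562 and the other lines. The depth of the libraries is unknown, so the lack of a peak does not show that KDM2B was absent.

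**Figure D1:**
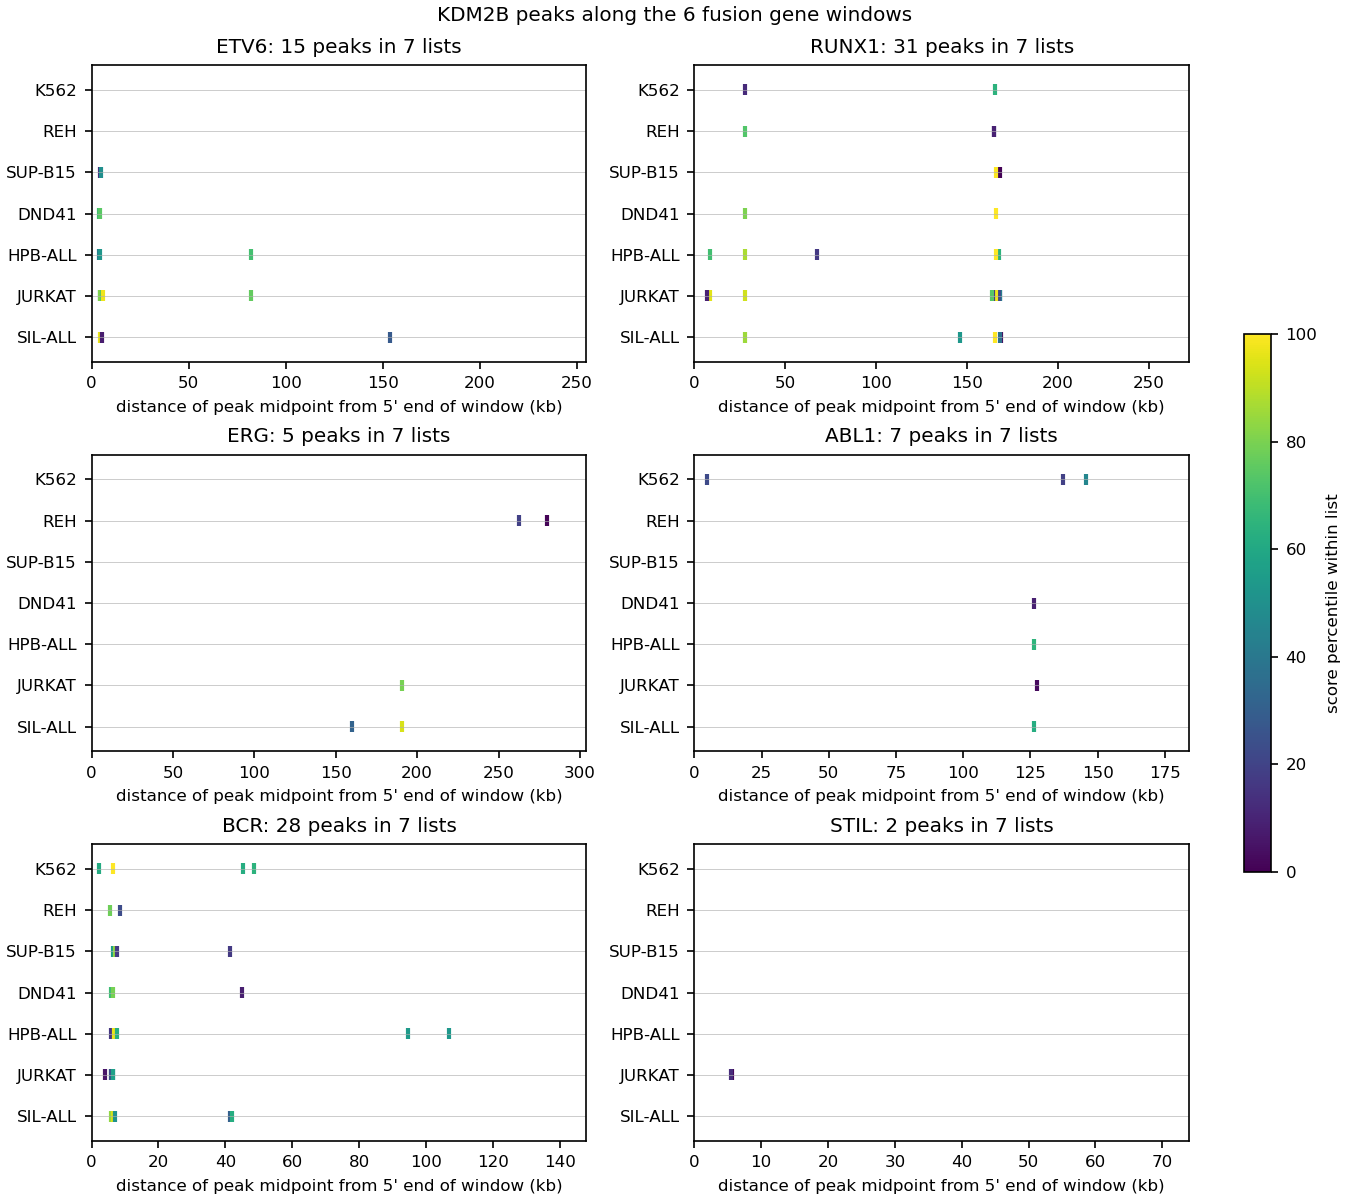
Each mark is the midpoint of a KDM2B peak, placed by its distance in kb from the 5′ end of the gene's window, with 1 row per line and the colour giving the score percentile within the list. RUNX1 and BCR have a peak in all 7 lines, and the STIL window holds 2 peaks, both of JURKAT.

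Merging peaks that overlapped by at least 1 bp gave 34 regions at the 6 loci. Of these, 12 (35.3%) held peaks of 2 or more lines, against 41.8% of the 29071 regions of the genome. There were 4 (11.8%) with 4 or more lines, against 17.4%, and 2 (5.88%) with all 7 lines, against 2.44%. The shares at 4 or more lines rest on 4 regions: 2 in RUNX1, 1 in BCR and 1 in ETV6. At BCR the 7 lines were joined through 1 wide K562 peak, and the short peaks of the other lines did not all overlap each other. Regions of 1 line alone numbered 22, of which 7 were JURKAT's, 5 K562's, 5 SIL-ALL's, 3 HPB-ALL's and 2 REH's.

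RUNX1 carried the highest-ranking peak of the 6 loci in SUP-B15 and in each of the 4 T-ALL lines. The region common to all 7 lines lay at chr21:36260052-36262827 (hg19), 166 kb from the 5′ end of the 272 kb window, in the interior of the gene. RUNX1 is known to be transcribed from a distal and an internal promoter. The best score in this region, the authors' own value per peak with no stated unit, was 2407 in DND41, 2410 in HPB-ALL, 2338 in SIL-ALL, 466.5 in JURKAT, 669 in SUP-B15, 113 in K562 and 56.1 in REH. As a percentile, the share of the list's peaks that scored no higher, this was 99.9 in DND41, 99.9 in HPB-ALL and 99.8 in SIL-ALL. It was 99.4 in SUP-B15 and 97.8 in JURKAT. K562, at 64.4, and REH, at 25.5, ranked it far lower in their lists. DND41, HPB-ALL, SIL-ALL and SUP-B15 each had a single wide peak there (2578, 2507, 2340 and 1989 bp). JURKAT split the stretch into 4 peaks, K562 had 1 of 822 bp, and REH had 2 of 192 and 159 bp. The DND41 peak was the 6th widest of its list.

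**Figure D2:**
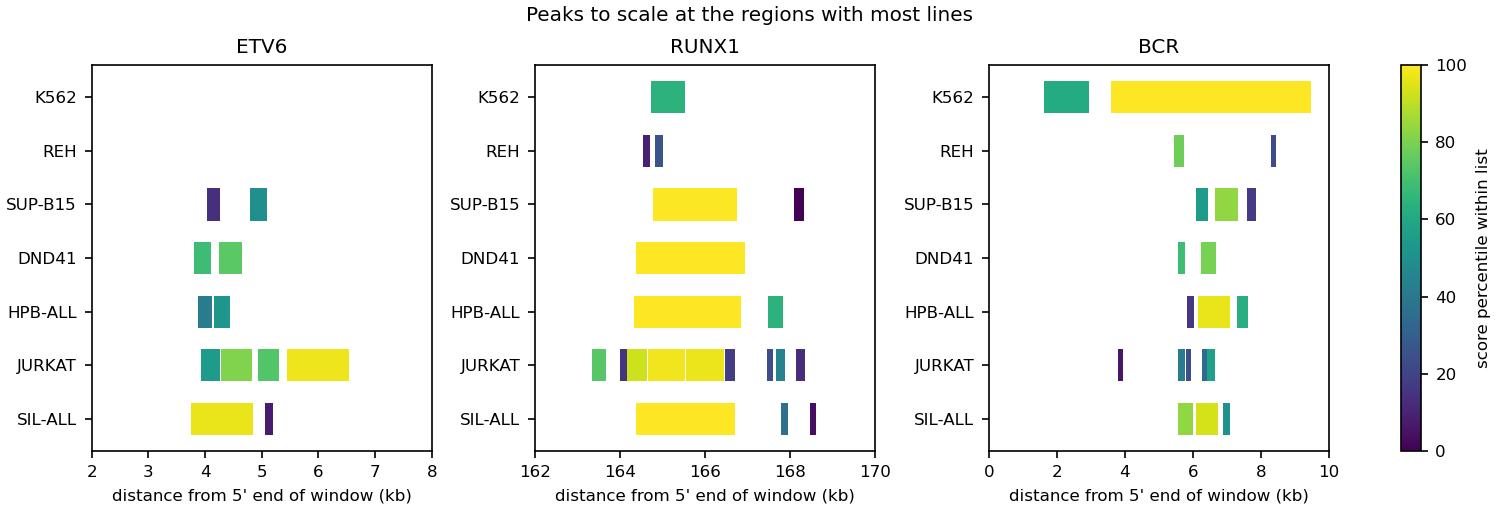
KDM2B peaks drawn to scale at the regions with most lines in ETV6, RUNX1 and BCR, with distance from the 5′ end of the window in kb on the x axis, 1 row per line and the score percentile as colour. At RUNX1 the SUP-B15, DND41, HPB-ALL and SIL-ALL peaks are 1989 to 2578 bp wide and JURKAT has several short ones. At BCR the K562 peak is 5903 bp wide.

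A second RUNX1 region, chr21:36398885-36399578, stood 27.8 kb from the 5′ end of the window and was found in every line but SUP-B15. Its percentiles were 92.9 in JURKAT, 87.4 in HPB-ALL, 85.4 in SIL-ALL, 80.4 in DND41, 72.8 in REH and 11.8 in K562. In REH, the ETV6-RUNX1 line, this was the best RUNX1 peak (score 88.7, 260 bp), above the internal region. In the other 5 lines with the region, the internal one ranked higher. HPB-ALL and JURKAT shared a further region 8.71 kb from the 5′ end (chr21:36417909-36418666), at percentiles 69.7 and 95.3.

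REH had 3 RUNX1 peaks, 3.68 per 10000 peaks of its list, inside the range of the other lines (1.34 in DND41 to 8.09 in JURKAT). They covered 611 bp, the least of the 7 lines. The next lowest was K562 with 1257 bp, followed by SUP-B15 with 2243, DND41 with 2977, SIL-ALL with 3493, HPB-ALL with 4016 and JURKAT with 4934 bp. With 1 line against 6 an exact permutation p cannot fall below 0.143, so REH was not tested. The T-ALL lines thus covered more of the RUNX1 window than the others, 3855 ± 835 bp (SD, n = 4) against 1370 ± 822 bp (SD, n = 3), with no overlap. The two-sided exact permutation p over the 35 splits was 0.0286, the smallest possible. Its Benjamini-Hochberg adjusted value over all tiles of the same length was 0.272 in this exact permutation scheme, and 10.5% of the tiles passed unadjusted. Covered bases were an alternative to the number of peaks per 10000, which did not pass: 4.15 ± 2.84 in T-ALL (SD, n = 4) and 3.23 ± 0.526 in REH, K562 and SUP-B15 (SD, n = 3), with an exact permutation p of 0.714 in a test that 7.98% of tiles passed. The T-ALL lists are also the longer ones. With equal lists of the 5942 top-scored peaks, tried after the data were examined, the cover was 3341 ± 527 bp (SD, n = 4) against 1169 ± 868 bp (SD, n = 3), again without overlap (exact permutation p = 0.0286). The difference in peaks per 10000 was 3.65 with equal lists (exact permutation p = 0.171) and 2.41 with peaks at or above the median score (exact permutation p = 0.2), in place of 0.918.

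ETV6 peaks were found in the T-ALL lines and SUP-B15 and in neither K562 nor REH. The counts were 5 in JURKAT, 3 in HPB-ALL, 3 in SIL-ALL, 2 in DND41 and 2 in SUP-B15. Most lay in 1 cluster near the 5′ end of the window. The shared region, chr12:11801747-11803313, was 4.53 kb from that end and held 11 of the 15 peaks. Its percentiles were 96.7 in SIL-ALL, 81.1 in JURKAT, 74.5 in DND41, 52.3 in HPB-ALL and 49.4 in SUP-B15. In SIL-ALL it was mainly a single peak of 1100 bp with a score of 883. JURKAT alone had a 1095 bp peak just beyond it (chr12:11803444-11804538, percentile 97.6). Further into the gene, HPB-ALL and JURKAT shared a region at 82.3 kb (percentiles 70.0 and 75.8), and SIL-ALL had a peak of its own at 154 kb (percentile 27.8).

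The 2 lines without an ETV6 peak differed in how far the gap reached. The nearest K562 peaks were 2947 kb upstream and 13350 kb downstream of the window. The nearest REH peaks were 923 kb upstream and 662 kb downstream. No peak in a tile as long as the window, 255 kb, was common in these lists: 55.9% of tiles for K562 and 51.2% for REH. The gaps around the window were longer than such a tile, above all in K562. How common gaps of that length are was not determined. Copy number and input signal were not used here, and their part in the missing peaks was not tested. T-ALL lines had 2.25 ± 0.852 ETV6 peaks per 10000 (SD, n = 4) and the other lines 0.885 ± 1.53 (SD, n = 3). The groups overlapped through SUP-B15 (2.65), and the difference did not pass (two-sided exact permutation p = 0.229, and 8.24% of tiles passed this test). With the common score floor of 80.0 it reached p = 0.0286 in the same exact permutation test, since SUP-B15 then had no peak left.

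**Figure D3:**
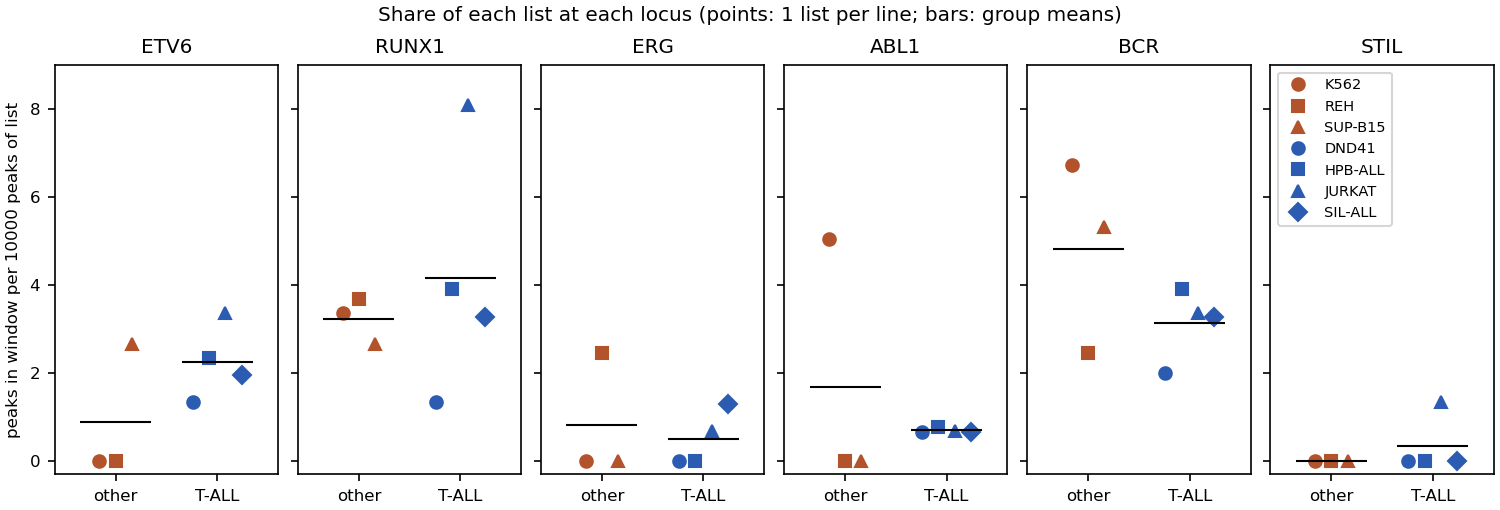
Peaks in each window per 10000 peaks of the list, with 1 point per line, lines grouped as T-ALL (4) or other (3), and a bar at each group mean. JURKAT stands highest at RUNX1 (8.09), K562 at ABL1 (5.05) and at BCR (6.73), and the groups overlap at all 6 loci.

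Every line had peaks in the main BCR region, near the 5′ end of the window. The region, chr22:23520580-23526482, took its full 5903 bp from a single K562 peak with a score of 1595, at percentile 99.98 and the 8th widest of the K562 list. In the other lines the same stretch held short peaks of at most 945 bp. Its percentiles were 96.6 in HPB-ALL, 93.7 in SIL-ALL, 83.4 in SUP-B15, 79.3 in DND41, 77.8 in REH and 56.8 in JURKAT. K562 was highest, and SUP-B15, which also carries a BCR-ABL1 fusion, lay within the range of the lines without one.

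K562 had 3 more BCR peaks. A 1307 bp peak stood 2.28 kb from the 5′ end of the window, and peaks of 3894 and 2568 bp stood at 45.2 and 48.5 kb. Near them SUP-B15 and SIL-ALL shared a region at 41.3 kb, and DND41 had a small peak inside the 3894 bp K562 peak. K562 had none in the remaining part of the 148 kb window, towards the 3′ end, where HPB-ALL alone had peaks (94.6 and 107 kb). The 4 K562 peaks covered 13672 bp of the BCR window, against 467 bp in REH, 890 in DND41, 904 in JURKAT, 1609 in SUP-B15, 1759 in SIL-ALL and 2054 in HPB-ALL. As much cover was found in 7 of 8182 tiles of this length in K562.

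The BCR-ABL1 lines had more of their list at BCR than the others: 6.73 peaks per 10000 in K562 and 5.31 in SUP-B15, against 2.01 in DND41, 2.46 in REH, 3.27 in SIL-ALL, 3.37 in JURKAT and 3.92 in HPB-ALL. The means were 6.02 ± 1.01 (SD, n = 2) and 3.0 ± 0.763 (SD, n = 5), and the groups did not overlap. The two-sided exact permutation p over the 21 splits was 0.0476, the smallest this design allows, 6.39% of tiles passed it, and the adjusted value over the tiles was 0.744. K562 and SUP-B15 also have the shortest lists: as plain numbers, 4 and 4 peaks against 2 to 5, the group means did not differ (difference 0, exact permutation p = 1). With equal lists of the 5942 top-scored peaks the exact permutation p was 0.381.

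At ABL1 the K562 peaks and those of the T-ALL lines lay in different places. DND41, HPB-ALL and SIL-ALL shared a region at chr9:133710256-133710630, 126 kb from the 5′ end of the 184 kb window, at percentiles 8.84, 64.9 and 62.1. JURKAT had a low-ranking peak just beyond it, at 128 kb (percentile 2.56). The peaks of these 4 lines were 127 to 328 bp wide. K562 had peaks at 4.83, 137 and 146 kb, of 423, 601 and 1420 bp, at percentiles 22.6, 19.3 and 45.9, and none of them overlapped a peak of another line. By width these K562 peaks stood at percentiles 32.7, 55.1 and 91.7 of their list, whose median width was 552 bp. REH and SUP-B15 had none. Their nearest peaks were 46.6 and 40.4 kb downstream of the window.

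K562 had 5.05 ABL1 peaks per 10000 and the T-ALL lines 0.653 to 0.783. The BCR-ABL1 lines had 2.52 ± 3.57 (SD, n = 2) and the others 0.556 ± 0.315 (SD, n = 5), which did not pass (two-sided exact permutation p = 0.286, and 6.62% of tiles passed). SUP-B15, with 0 like REH, stood at the opposite end from K562, and without K562 the difference was -0.556. The 2 lines with BCR-ABL1 thus had no common pattern at ABL1.

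Outside the windows, K562 differed most from the 6 other lines on the sides that the fusion retains. This comparison was added after the data were examined. In the 500 kb downstream of the ABL1 window K562 had 52 peaks covering 137 kb, against 4 to 11 peaks covering 1.23 to 3.59 kb in the others. In the 500 kb upstream of the BCR window it had 19 peaks covering 60.2 kb, against 0 to 4 peaks covering up to 1.16 kb. Those 2 sides remain next to the joined 3′ part of ABL1 and 5′ part of BCR. On the opposite sides, K562 had 4 peaks covering 1.98 kb upstream of ABL1, also the highest of the lines (others 0 to 4 peaks covering up to 0.701 kb), and no peak in the 500 kb downstream of BCR, where the others had 2 to 9. K562 was the highest beside STIL too, with 6.80 kb upstream (others up to 2.05 kb) and 1.76 kb downstream (others up to 0.226 kb). Of 3899 tiles of 500 kb, 0.0256% (1 tile) held as many K562 peaks as the ABL1 side and 0.308% (12) as many as the BCR side. No tile was covered as much as the ABL1 side, and 1 as much as the BCR side. At least 1 K562 peak was found in 52.2% of these tiles, so a 500 kb stretch without any was common in this list. Downstream of BCR the stretch without a K562 peak reached 1000 kb, longer than these tiles measure. From 250 to 1000 kb there the other lines covered 1.51 to 5.81 kb. The tiles include those that overlap the flanks themselves.

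Most of the K562 cover lay within 250 kb of either gene. In the first 250 kb downstream of ABL1, 131 kb (52.5%) was covered by K562 peaks, and 90.4% of the first 50 kb. From 250 to 1000 kb it was 7.004 kb (0.934%), beside up to 6.85 kb in another line (HPB-ALL). In the first 250 kb upstream of BCR, 60.2 kb (24.1%) was covered, and from 250 to 1000 kb 4.27 kb (0.569%), beside up to 0.892 kb in another line (JURKAT). SUP-B15, with the other BCR-ABL1 fusion of the set, had 0.496 kb and 0.562 kb in the same 250 kb stretches. REH and the T-ALL lines reached at most 1.97 kb (JURKAT) beside ABL1 and 0.579 kb (REH) beside BCR.

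**Figure D4:**
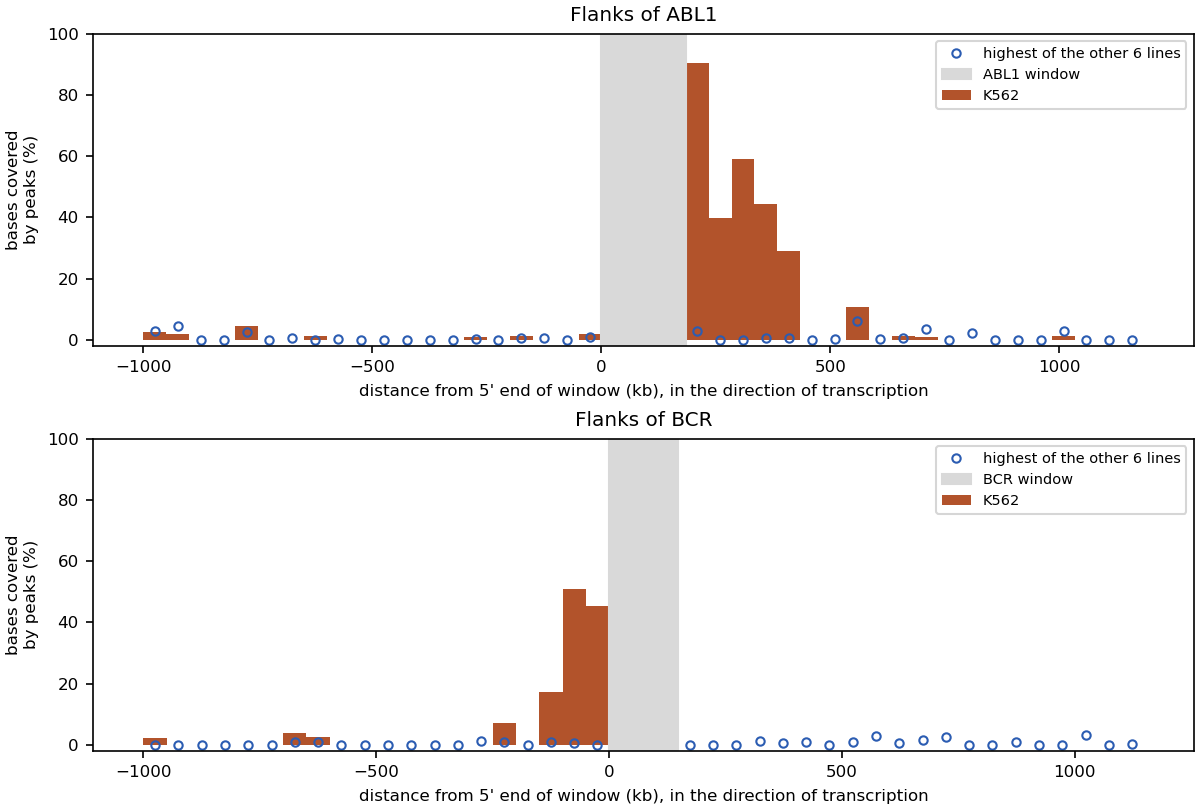
Share of bases covered by peaks in steps of 50 kb out to 1000 kb on either side of the ABL1 and BCR windows (grey, not filled in), by distance in kb along the direction of transcription. Bars are K562 and circles the highest of the other 6 lines. K562 reaches 90.4% just downstream of ABL1 and has no peak downstream of BCR.

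These K562 peaks were wide for their score. The widest of the K562 list, 14443 bp at chr22:23408393-23422835, lay upstream of BCR, and the next 3, of 11104, 10618 and 9511 bp, lay downstream of ABL1. Within 500 kb of either window, or inside it, were 8 of the 10 widest K562 peaks and 14 of the 20 widest. The other 2 of the 10 were elsewhere on chromosome 22, at chr22:19704680-19712637 and chr22:19740784-19747495. They were also among the highest-scored of the list, at score percentiles 100 and 99.9. The 59 peaks in or near ABL1 had a median width of 1719 bp and the 23 in or near BCR 2329 bp, against 547 bp for the 5860 others. When the list was divided into 10 classes of score percentile, 79 of the 82 were wider than the median peak elsewhere in their class, with a median ratio of 2.82. Their scores were spread over the list: the 52 downstream of ABL1 ranged from percentile 1.06 to 99.8 with a median of 69.7, and the 19 upstream of BCR from 22.1 to 98.5 with a median of 61.6. Copy number and input signal were not used here, and no source used here names the control of the K562 list. Their part in these peaks was not tested.

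**Figure D5:**
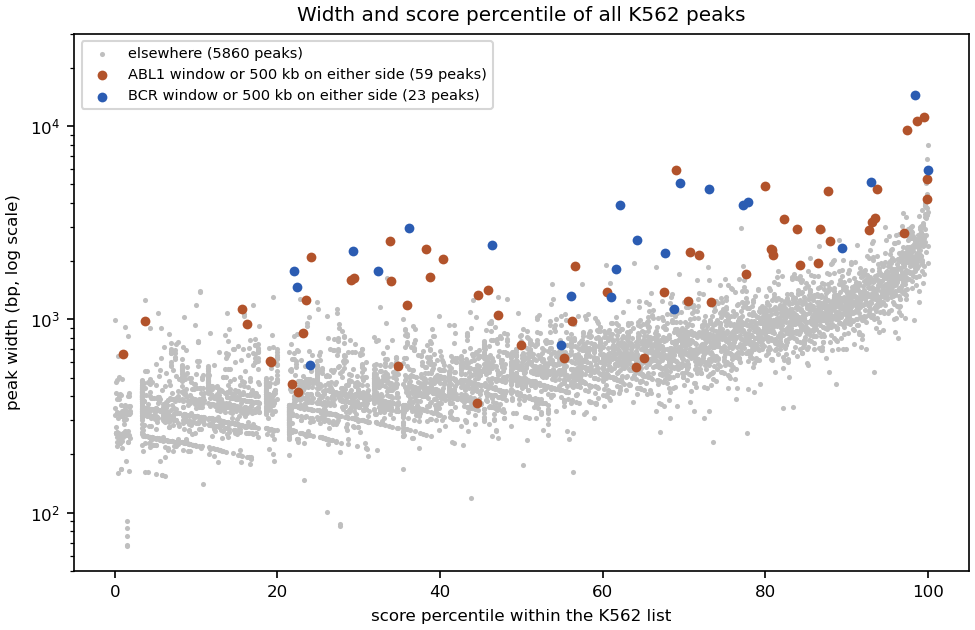
Width (bp, log scale) against score percentile for all 5942 K562 peaks, with those in or within 500 kb of the ABL1 window (59) and the BCR window (23) in colour. The coloured peaks lie above most grey peaks of the same percentile, and 79 of 82 exceed the median width of their class.

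ERG and STIL had few peaks and no region of 4 or more lines. No list had an ERG peak in the first 160 kb of the 304 kb window from its 5′ end. The best ERG region, chr21:39848222-39848755 at 191 kb, was shared by SIL-ALL (score 662, percentile 94.1) and JURKAT (138, percentile 79.4). SIL-ALL had a further peak at 160 kb (percentile 31.6). REH had 2 peaks of its own near the 3′ end, at 263 and 280 kb, with low percentiles (19.5 and 1.105). K562, SUP-B15, DND41 and HPB-ALL had none. The T-ALL lines had 0.495 ± 0.627 ERG peaks per 10000 (SD, n = 4) and the others 0.818 ± 1.42 (SD, n = 3), and this difference did not pass (exact permutation p = 0.886, and 7.96% of tiles passed).

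The STIL window held 2 JURKAT peaks, 5.42 and 5.66 kb from its 5′ end, with scores of 56.7 and 50.7 at percentiles 12.6 and 1.47. Both lay under the lowest score of DND41 (60.0), HPB-ALL (80.0) and SIL-ALL (80.0), whose lists hold no peak scored as low. The nearest upstream peaks of those 3 lines were 14.3 to 15.1 kb from the window, and those of K562, REH and SUP-B15 117 to 118 kb. With a peak in a single list STIL could not differ between groups (exact permutation p = 1, in a test that 8.11% of tiles passed). Between T-ALL and other lines, ABL1 had 0.695 ± 0.0596 (SD, n = 4) against 1.68 ± 2.91 peaks per 10000 (SD, n = 3), and the higher mean of the others came from K562 alone (exact permutation p = 0.886, and 8.12% of tiles passed). BCR had 3.14 ± 0.807 against 4.83 ± 2.18, with overlap through REH (exact permutation p = 0.229, and 7.78% of tiles passed).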

How the data were processed

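The series holds 12 libraries, 7 of KDM2B and 5 of input, and the 7 KDM2B peak lists were analysed. The inputs are of K562, REH, SUP-B15, HPB-ALL and SIL-ALL. DND41 and JURKAT, both T-ALL lines, have no input library in the series. FastQC 0.10.1, Bowtie 1.1.1 and the build hg19 are named in the submitters' processing notes. Each deposited list gives a position and a score per peak, the authors' own value, used here to rank or filter within a list. The common floor and the lowest score of each list set scores of different lists side by side, and whether their scales are alike is unknown. Peak names in the files begin with MACS. No source used here gives its version, control or threshold, and the input libraries were not analysed here. Depth is unknown.

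Windows came from a fixed rule (at least 1 bp overlap), strand and promoter sequence from RefSeq's GRCh38.p14 table, and positions are 1-based hg19. No hg19 annotation was used, so peaks were not assigned to exons or promoters and other fusion genes were not counted. Windows were compared by exact permutation over lines on peaks per 10000 peaks, with a threshold of 0.05. Each p was set beside the same test over all tiles of the window's length with a peak in 2 or more lists, and adjusted over these by Benjamini-Hochberg. The p-values measure the spread between single libraries of different lines. The scripts were tested on simulated data. Named were the 6 genes, regions of 4 or more lines, the region of each locus with the highest mean percentile and the best region of a fusion line alone; other regions were chosen after their values were seen. Members and lists were chosen with earlier results of these data known. Alternatives were equal lists, score filters, overlap, joining, window size, number or cover in place of shares, and each line left out. Python 3.11.15, numpy 2.4.6, pandas 2.3.3 and matplotlib 3.10.9 were used.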

Additional observations from a re-analysis of the deposited data

Results flagged for a closer look

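Over the 7 lines, 24 values per line (the share of the list and the bases covered at each locus, and the bases covered in the 500 kb on either side) were examined for a line far from the rest. A gap wide against the range was found in 11. The 1.2 expected by chance at 1 in 20 cannot be used to judge this number, because the values at 1 locus are not independent. A value above zero in a single line, as at STIL, also has such a gap by necessity. Covered bases are not on an equal footing for K562 either, whose list has the wider peaks. K562 was the high line in 8 of the 11, mostly by covered bases. At ABL1 it had 5.05 peaks per 10000 (next 0.783) and 2444 bp covered (next 328), and at BCR 13672 bp (next 2054). Beside ABL1 it had 1975 bp upstream (next 701) and 137186 bp downstream (next 3589), and 60169 bp upstream of BCR (next 1157). Beside STIL it had 6803 bp upstream (next 2045) and 1759 bp downstream (next 226).

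JURKAT was the high line in the others. At RUNX1 it had 8.09 peaks per 10000 (next 3.92), and its 12 peaks became 5 when those within 500 bp were counted as 1, as many as in HPB-ALL and SIL-ALL. At STIL it had 1.35 peaks per 10000 and 355 bp, where the other lines had none, so the gap was the whole range by necessity.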

How the results depend on the processing

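Of 128 alternative values of the tests, 102 kept the call and did not reverse, 12 lost the call, 2 gained one and 12 reversed. The 102 include differences of 0, which have no direction, at ABL1 as a number of peaks and at STIL without JURKAT. All these counts include the runs with a line left out, which are too small to reach the test threshold in any comparison. In such runs a call that did not pass was bound to stay so, and one that passed was bound to be lost. Only their direction is informative, so the counts do not measure how stable the calls are. Of 112 alternative counts, 86 stayed within 1.5 times and 26 moved. No paired analysis was possible because every list comes from a different line. The higher share of BCR-ABL1 lines at BCR (3.02 per 10000) was 2.02 with equal lists (exact permutation p = 0.381), 5.79 with peaks at or above their list's median score (p = 0.0952), 4.82 with a common floor (p = 0.190), 0 as a number of peaks and 6426 as covered bp (p = 0.143). It was 2.31 to 3.73 with each line left out, with an exact permutation p of 0.0667 to 0.167, the smallest these smaller designs allow, so leaving out lines says nothing about this call. The T-ALL difference became 3.29 at ETV6 with a common floor (exact permutation p = 0.0286) and 2485 bp at RUNX1 as covered bases. Reversals were at ERG (-0.323 became 0.841 with equal lists, 0.664 with peaks at or above the median and 0.664 with a common floor, 0.0833 as a number and 55.5 bp covered), ABL1 (-0.988 became 0.718 with peaks at or above the median), BCR (-1.69 became 1.17 as a number) and ABL1 by fusion (1.97 became -0.575 with peaks at or above the median).

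With each line left out, the T-ALL difference ranged from 0.927 to 2.25 at ETV6, -0.394 to 1.86 at RUNX1 (lowest without JURKAT), -0.732 to 0.495 at ERG (highest without REH), -1.83 to 0.695 at ABL1 (highest without K562), -2.88 to -0.742 at BCR and 0 to 0.449 at STIL (0 without JURKAT). The ABL1 difference by fusion ranged from -0.556 to 4.49.

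Peaks of all lists were 9, 18, 2, 15 and 0 at ETV6, RUNX1, ERG, BCR and STIL with equal lists. With peaks at or above the median score they were 18, 2, 2, 18 and 0 at RUNX1, ERG, ABL1, BCR and STIL, and with a common floor 3, 3 and 0 at ERG, ABL1 and STIL. Joining peaks within 500 bp left 9, 16 and 1 at ETV6, BCR and STIL, and 27 of 52 K562 peaks downstream of ABL1. A window narrowed by 5 kb left 7 at ETV6. ABL1 had a peak in 3, 2 and 3 lists, in place of 5, with equal lists, peaks at or above the median and the common floor. When a line's peaks had to cover 50% of a region, ETV6 and BCR had 0 regions of 4 or more lines, in place of 1 each. At STIL the stricter lists left no peak and so no difference.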
